A study of Homo sapiens with 3 samples.

Results

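Ribosome biogenesis factors are the proteins that make, fold, cut and export the precursors of both ribosomal subunits without being part of the finished ribosome. The genes of 41 such factors, a list of names with no measured value in its rule, were followed in GoldCLIP-seq peak lists from HCT116, a long-established line from a human colorectal carcinoma. Of the 3 samples, 1 library each, the first carried HaloTag alone, another RPL22-HaloTag and the last RPL22L1-HaloTag. Peak lists of the 2 fusions were used, and the HaloTag library was not analysed here, so no tag-only background stands beside any value. HaloTag is a protein tag that binds its resin covalently, which lets RNA crosslinked to the fusion be washed harshly. RPL22 belongs to the 60S ribosomal subunit, and RPL22L1 is its paralog. How the fusions were introduced, whether each line was 1 clone and how much fusion protein the cells held are not given in the sources used here. All 41 symbols were found once each among 20033 protein-coding genes on the nuclear chromosomes of the RefSeq gene table of GRCh38.p14. A gene was credited with each peak whose summit, the highest point of the peak, lay within its bounds.

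Pre-rRNA is transcribed in the nucleolus as 1 long molecule that carries the RNAs of both subunits. The small subunit processome, a large particle of U3 snoRNA and UTP proteins, assembles on its 5′ part and leads to 18S rRNA, and late factors then finish the 40S subunit in the cytoplasm. A separate set of factors, among them the PeBoW complex and several GTPases, matures the 28S and 5.8S rRNAs into the 60S subunit. By these roles 22 members act on the small subunit, 17 on the large subunit and 2, NOLC1 and TCOF1, on rDNA transcription and snoRNP assembly. The peaks mark places within the bounds of these genes where RNA was recovered with a tagged ribosomal protein. That RNA can be mRNA or pre-mRNA of the gene, a small RNA encoded inside it, or RNA of an overlapping gene. No tag-only background was set beside the peaks. They say nothing about the factors themselves.

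Both lists were long and made up mostly of minimal peaks. There were 154000 peaks for RPL22 and 254413 for RPL22L1. A peak is termed flat where it had the smallest width of 30 bases and its summit at the centre. By this measure 64.9% of RPL22 peaks and 77.9% of RPL22L1 peaks were flat. The read depth behind the lists is unknown and there were no replicates, so no test between groups was possible, all values describe these 2 libraries, and the intervals given are exact 95% intervals for counting error only. Peaks of 1 gene share its RNA and are not independent of each other. As a check of the cell type, 5 of 5 epithelial markers (EPCAM, KRT8, KRT18, KRT19 and CDH1) held summits in both lists. Of all protein-coding genes 68.3% (RPL22) and 69.8% (RPL22L1) held one. Of markers of other cell types (PTPRC, CD3E, ALB, COL1A1 and COL1A2), 1 and 2 of 5 held summits. ALB had 0 and 1, but COL1A1 had 9 and 6 and went against this check. The epithelial markers, in the order given, had 4, 11, 3, 5 and 18 RPL22 summits.

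Nearly every member held peaks in both libraries. A summit lay in 40 of 41 genes in the RPL22 list, where 68.3% of all protein-coding genes had one, and in 41 of 41 in the RPL22L1 list, where 69.8% had one. EBNA1BP2 was the member without an RPL22 summit. Summits of peaks that were not flat lay in 40 members for RPL22 and 38 for RPL22L1, beside 51.7% and 45.4% of protein-coding genes. NOL6, NOB1 and RRS1 held only flat peaks in the RPL22L1 list. The median length was 24.3 kb for members and 24.1 kb for all protein-coding genes. Members spanned 1.72 kb for RRS1 to 106.51 kb for UTP20, and the longest protein-coding gene 2473.62 kb. Densities pooled over all protein-coding genes are therefore not matched to the members for length.

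Peaks were dense along these genes. The 41 genes together held 388 RPL22 summits, 0.345 per kb (0.312 to 0.381), and 765 RPL22L1 summits, 0.680 per kb (0.633 to 0.730). All protein-coding genes together gave 0.103 and 0.174 per kb. The median member had 9 RPL22 and 15 RPL22L1 summits, and the median protein-coding gene 3 and 4. Per kb, the medians were 0.362 and 0.767 for members and 0.0992 and 0.128 for protein-coding genes. The density of peaks that were not flat was 0.229 and 0.272 per kb in members and 0.0399 and 0.0411 per kb over all protein-coding genes. Each of these rates counts a summit once for every gene whose bounds hold it. RNA levels are not part of these files, and their relation to the densities was not tested. A second list of 66 other ribosome biogenesis genes gave 0.295 RPL22 and 0.595 RPL22L1 summits per kb, with a summit in 61 and 64 genes. Densities above those of all protein-coding genes were thus also found outside the 41 members. Both lists of genes were chosen with earlier results of these data known.

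**Figure D1:**
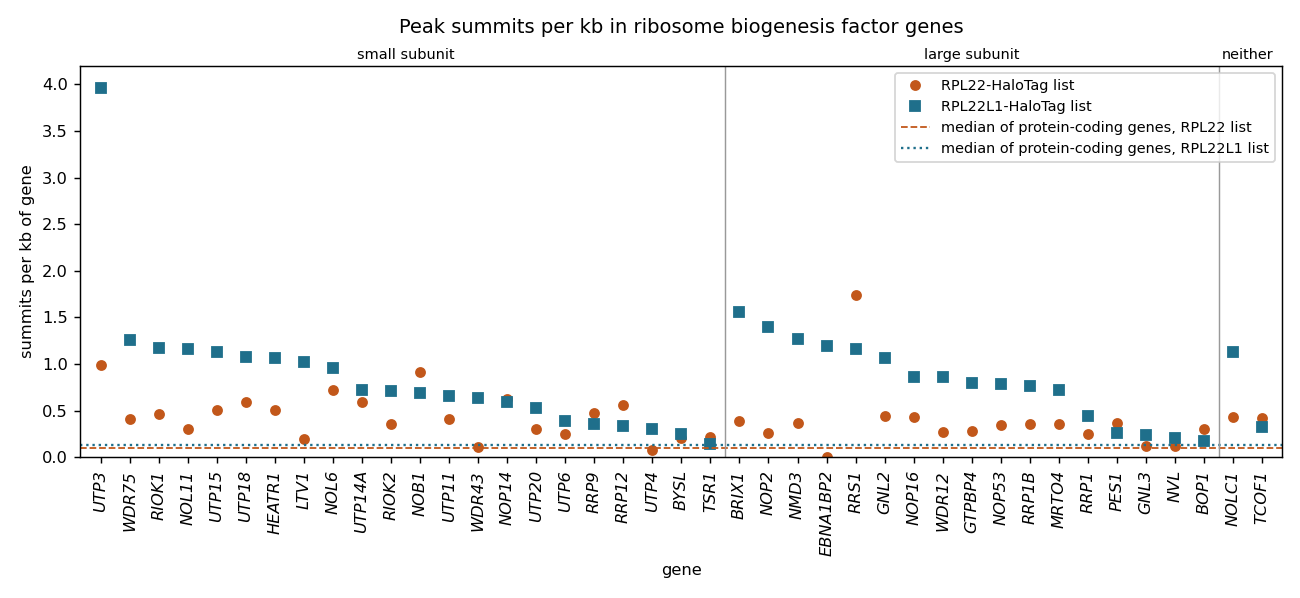
Summits per kb of gene for each of the 41 genes in the RPL22-HaloTag list (circles) and the RPL22L1-HaloTag list (squares), 1 library each, with genes grouped by subunit and ordered by the RPL22L1 value. UTP3 stood highest in the RPL22L1 list at 3.96 per kb and RRS1 in the RPL22 list at 1.74, and the horizontal lines give the medians of all protein-coding genes, 0.0992 (dashed) and 0.128 (dotted).

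Peaks in members were less often flat than peaks of protein-coding genes as a whole. Flat peaks made up 131 of 388 RPL22 peaks, or 33.8% (29.1 to 38.7%), and 459 of 765 RPL22L1 peaks, or 60% (56.4 to 63.5%). Over protein-coding genes the shares were 61.5% and 76.4%. The 66 other ribosome biogenesis genes also lay below these, at 41.4% and 67.0%. The larger number of RPL22L1 summits lay mainly in the flat class: members held 3.50 times as many flat RPL22L1 peaks as flat RPL22 peaks, and 1.19 times as many others (306 against 257). For protein-coding genes these ratios were 2.08 and 1.03. Scores are the authors' whole-number value per peak, on a scale of its own in each library. Members' flat peaks had a median score of 21 for RPL22 and 86 for RPL22L1, and their other peaks 87 and 254. Of members' RPL22 peaks 72.7% lay at or above the median score of the list, 33, and of their RPL22L1 peaks 50.8% lay at or above its median of 124.

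Sites in members were often shared between the libraries. An RPL22L1 peak overlapped by at least 1 base 150 of 388 RPL22 peaks, or 38.7% (33.8 to 43.7%), beside 19.1% over protein-coding genes. In the other direction 152 of 765 RPL22L1 peaks overlapped an RPL22 peak, or 19.9% (17.1 to 22.9%), beside 11.4%. Peak shape moved with these shares. Among peaks that were not flat, 51.8% (45.5 to 58.0%) of the members' RPL22 peaks and 34.0% (28.7 to 39.6%) of their RPL22L1 peaks were shared, against 39.7% and 26.5% over protein-coding genes. Among flat ones 13% (7.75 to 20%) and 10.5% (7.81 to 13.6%) were. At least 1 shared peak was found in 33 of 41 members, where 39.9% of protein-coding genes had one in either list. Among the 66 other ribosome biogenesis genes 50 had an RPL22 peak that was shared. The 8 members without any were BOP1, RRP1, RRS1, BYSL, TSR1, GNL3, MRTO4 and EBNA1BP2.

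Sharing followed score. In the RPL22 list 17.9% (11.2 to 26.6%) of members' peaks below the list median were shared, 46.5% (40.5 to 52.5%) of those at or above it, and 8 of 9 within the top 1% of the list. In the RPL22L1 list the shares were 8.78% (6.12 to 12.1%), 30.6% (26.1 to 35.4%) and 17 of 26. The same was not counted over all protein-coding genes. Peak shape differed along with score: in these bins 14 of 106, 243 of 282 and 9 of 9 RPL22 peaks were not flat. For RPL22L1 the numbers were 69 of 376, 237 of 389 and 26 of 26. The RPL22 peak in the top 1% that was not shared lay in GNL3.

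**Figure D2:**
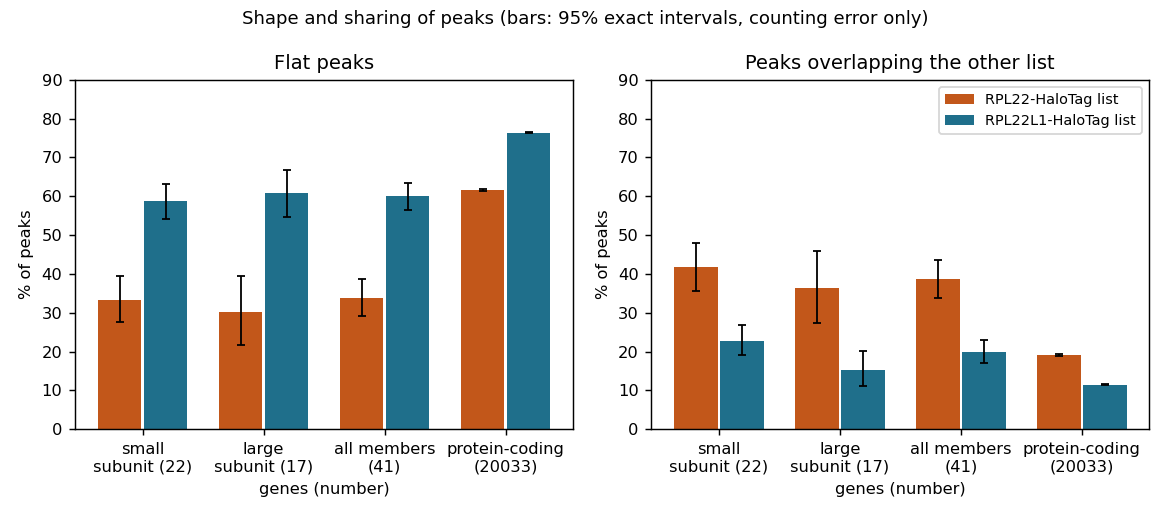
Share of peaks that were flat (left) and that overlapped a peak of the other list by at least 1 base (right), in percent of peaks, for small subunit, large subunit and all 41 member genes and for 20033 protein-coding genes. Error bars are exact 95% intervals for counting error, and members stood at 33.8% and 60% flat and 38.7% and 19.9% shared in the RPL22 and RPL22L1 lists.

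Members reached the top of both lists. The highest peak of 9 members lay within the top 1% of the RPL22 list, which 4.67% of protein-coding genes reached, and that of 15 members within the top 1% of the RPL22L1 list, which 7.5% reached. Both were true of 7: UTP18, WDR43, HEATR1, PES1, NMD3, GNL3 and RIOK2. In the RPL22 list NOP53 and GNL2 were the others, and in the RPL22L1 list UTP4, UTP6, UTP11, WDR75, NOL11, NOP14, GTPBP4 and BRIX1. The top peaks of WDR43 and GNL3, and that of NOP53 in the RPL22 list, lay in snoRNA genes. Those of NOP14 lay in the overlapping lncRNA gene NOP14-AS1 in both lists. Outside its snoRNA gene, WDR43 had best ranks of 1.325% (RPL22) and 2.018% (RPL22L1). How many protein-coding genes reached the top 1% of both lists was not counted. The median rank of the members' highest peaks was 2.98% for RPL22, with EBNA1BP2 counted as last, and 2.07% for RPL22L1. For protein-coding genes it was 24.8% and 16.5%, with every gene without a summit counted as last. Only 68.3% (RPL22) and 69.8% (RPL22L1) of protein-coding genes held a summit. The difference from the members is therefore not one of peak rank alone. The highest peaks of both lists overlapped each other in 9 of 40 members: UTP6, WDR43, HEATR1, NOP16, NOP53, NOLC1, PES1, RRP9 and GNL2. In 16 of 40 the highest peaks overlapped or had at most 1000 bases between them. Neither was counted over all protein-coding genes, so these counts cannot be called particular to the members.

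**Figure D3:**
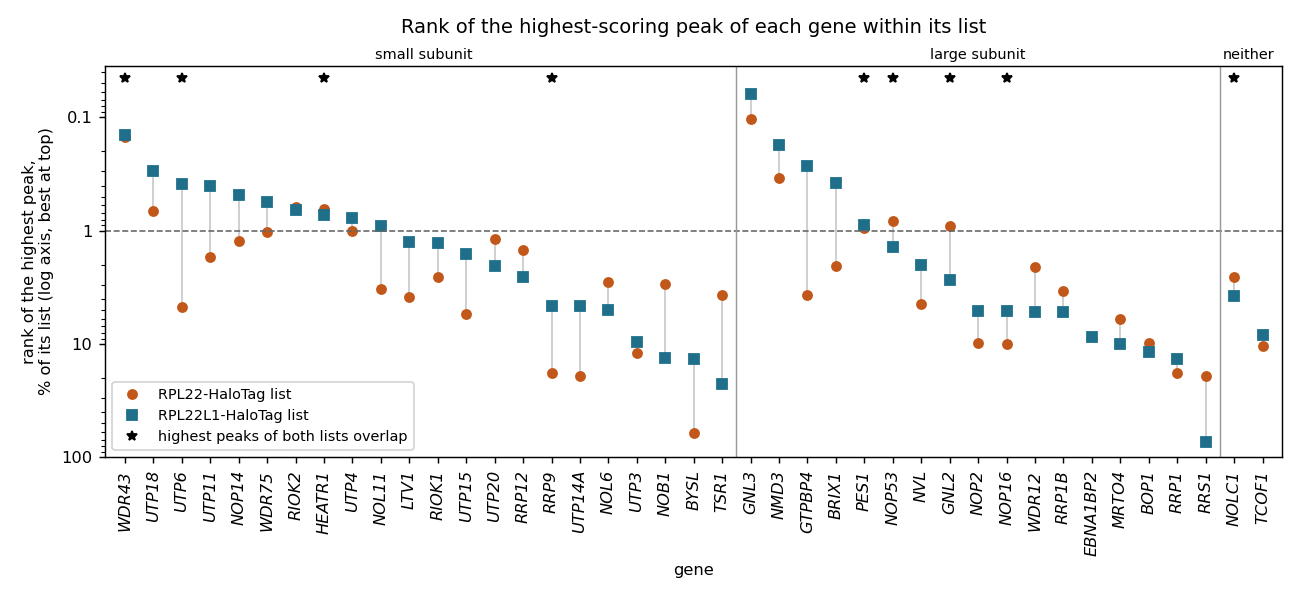
Rank of the highest-scoring peak of each gene in percent of its own list, on a log axis with the best rank at the top, in the RPL22-HaloTag list (circles) and the RPL22L1-HaloTag list (squares); the dashed line is the top 1%. Stars mark the 9 genes whose highest peaks overlapped, GNL3 ranked best in both lists at 0.105% and 0.0617%, and EBNA1BP2 had no RPL22 peak.

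Some of the highest peaks belonged to snoRNA genes that lie inside the members. SnoRNAs are small nucleolar RNAs that guide the modification of rRNA, and many are cut from the introns of genes for ribosome-related proteins. The top peaks of WDR43 lay in SNORD92 in both lists, at 28913728 to 28913757 and 28913728 to 28913758 of chromosome 2, with scores of 6066 (0.149% down the RPL22 list) and 5068 (0.145% down the RPL22L1 list). Those of NOP53, at 47755927 to 47755966 and 47755927 to 47755971 of chromosome 19, lay in SNORD23 with scores of 586 and 789. In GNL3, which encodes nucleostemin, the RPL22 list held 1 peak, in SNORD69 (chromosome 3, 52692779 to 52692813, score 10971, rank 161). The RPL22L1 list held a peak in SNORD19B (52690753 to 52690825, score 20159, rank 157) and 1 other with a score of 324. The libraries thus gave their highest member peak in the same host gene but in different snoRNA genes, 1953 bases apart. The top RPL22 peak of NOL11, with a score of 245, lay in SNORA38B, and an RPL22L1 peak of 319 lay there too. In all, 4 RPL22 and 4 RPL22L1 summits of members fell in snoRNA genes. Summits that lay within a shorter gene overlapping a member numbered 21 and 33, among them 3 and 8 of HEATR1 in LGALS8. With longer genes counted too, 47 and 76 summits lay within another gene. All RPL22 summits of RRS1, NOP16 and BRIX1 also lay within LOC102724687, ARL10 and TTC23L. In UTP14A nearly all summits of both lists also lay within LOC105373335. The peaks carry no strand, so RNA of a member and of an overlapping gene cannot be told apart.

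Bases under a peak could be read where the peak lay in the RefSeq sequence tables of GRCh38.p14. These held the first bases of 35 members, and RRP12, TCOF1, RRP1B, RRS1, BOP1 and NOLC1 were not read. Peaks at the start of a transcript are shown because they lie at the annotated 5′ end. A peak lay wholly in the part read in 4 members, each 30 bases wide, flat and not shared. The sequences are on the strand of the gene, 5′ to 3′, with the base at the summit in capitals.
WDR75, RPL22 list, chr2:189441463-189441492 (+), score 21: agagattggccattcCgctactgcgcaaag
UTP3, RPL22L1 list, chr4:70688542-70688571 (+), score 69: caggagtctgcaaacTccggtggtagggga
NOP53, RPL22L1 list, chr19:47745560-47745589 (+), score 126: atggcggcaggaggcAgtggcgttggtggg
UTP14A, RPL22L1 list, chrX:129906167-129906196 (+), score 303: tcggcttccgttcttGgtccatgtgagaga
The 3 RPL22L1 peaks began 11, 15 and 4 bases into UTP3, NOP53 and UTP14A, and the WDR75 peak began 11 bases before the annotated start. Their G and C content was 53.3% in WDR75 and UTP14A, 60% in UTP3 and 70% in NOP53.

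EBNA1BP2, the human counterpart of yeast EBP2 and a factor of the large subunit, was the member found in 1 list alone. Among the 66 other ribosome biogenesis genes, FTSJ3, RRP36 and RRN3 also held RPL22L1 summits alone, at 14, 7 and 1. EBNA1BP2 held 0 RPL22 and 10 RPL22L1 summits over 8.40 kb of chromosome 1 (43164174 to 43172570), of which 5 were not flat. The highest had a score of 323, 8.76% down the list, so none was among the strongest peaks. In lists of equal size, where the RPL22L1 list was reduced to its 149971 peaks with scores above 98, 5 of the 10 were left. One of the 10, with a score of 91, lay on the hairpin of a microRNA gene inside EBNA1BP2 on the same strand. It is shown because no other member peak had its summit in a microRNA gene, with the 47 of its 61 bases under the peak in capitals.
MIR6733 hairpin, chr1:43171652-43171712 (-): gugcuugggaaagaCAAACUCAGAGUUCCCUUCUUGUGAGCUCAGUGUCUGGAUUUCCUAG

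The UTP-A complex, which binds the 5′ end of pre-rRNA and is needed for rDNA transcription, was the group with the most RPL22L1 summits per kb apart from the single gene NMD3. Its 6 members held 68 RPL22 summits, 0.304 per kb, and 198 RPL22L1 summits, 0.885 per kb. Of the RPL22 peaks 42 were shared, the most of any group. HEATR1 (human UTP10, chromosome 1, 236549005 to 236604516) had 28 and 59 summits, of which 19 and 28 were not flat and 14 and 15 shared. Its highest peaks overlapped at 236564522 to 236564636 and 236564518 to 236564551, with scores of 706 (0.643%) and 1081 (0.725%). WDR75 (human UTP17, chromosome 2, 189441474 to 189475552) had 14 and 43 summits, and 11 of the 14 were shared. The highest RPL22 peak of WDR75, with a score of 492, lay near its 5′ end at 189441539 to 189441579 and was shared with an RPL22L1 peak of 515. The highest RPL22L1 peak, with a score of 1229, lay 10263 bases away and had no RPL22 counterpart.

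WDR43 (human UTP5, chromosome 2, 28894667 to 28948219) had 6 RPL22 and 34 RPL22L1 summits. All 6 RPL22 peaks were not flat and 5 were shared, the second highest with a score of 425 at 28941539 to 28941573 against 651 in the RPL22L1 list. NOL11 had 8 and 31 summits, with 7 of the 8 shared. UTP4, whose product is also called cirhin, had 3 and 11 over 36.4 kb, and the RPL22 value of 0.0825 per kb was the lowest among members with a summit. UTP15 had 9 and 20, of which 3 and 3 were shared. Over the complex 42 of 68 RPL22 peaks and 43 of 198 RPL22L1 peaks were shared. Most of the RPL22 peaks that were not shared lay in HEATR1, where 14 of 28 were shared, and UTP15, where 3 of 9 were.

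Other factors of the small subunit processome were more even. UTP20, a long scaffold protein, had 32 and 56 summits over 106.51 kb, the most of any member in the RPL22 list. UTP18 of the UTP-B complex had 22 and 40 summits over 37.4 kb, and 13 of the 22 were shared. Its highest peaks were 5720 bases apart, with scores of 685 (0.669%) at 51288129 to 51288162 and 1868 (0.299%) at 51293883 to 51293984 of chromosome 17. UTP6, its partner in that complex, had 10 and 16, with the highest peaks at nearly the same bases (31886002 to 31886032 and 31886000 to 31886033 of chromosome 17) and scores of 199 and 1525. UTP11 had 5 and 8 summits, and 5 of its 8 RPL22L1 peaks were shared. NOP14 had 16 and 15, of which 9 and 9 lay in the overlapping NOP14-AS1, the highest peak of each list among them. RRP9, a U3 snoRNP protein, had 4 and 3.

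In a few of these genes peak shape separated the lists. UTP14A had 14 RPL22 summits, 9 of them not flat, and 17 RPL22L1 summits, 1 of them not flat, with 1 shared peak. Nearly all of these summits also lay within LOC105373335, a longer gene. NOL6 had 9 RPL22 summits, 7 of them not flat, and 12 RPL22L1 summits, all flat, yet 5 of the 9 were shared. UTP3, a gene of 2.02 kb, had 2 and 8 summits, which gave 0.990 and 3.96 per kb, the latter the highest density of all members. With so short a gene that density rests on 8 peaks.

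Factors of later 40S maturation held 70 RPL22 and 102 RPL22L1 summits over 7 genes, with more in either list by gene. RIOK1, an atypical kinase, had 13 and 33, and LTV1, a chaperone of the small subunit, 4 and 21. RIOK2, a kinase that travels with the pre-40S particle, had 8 and 16, of which 4 and 4 were shared. The highest RPL22 peak of RIOK2 (97165056 to 97165108 of chromosome 5, score 732, 0.617%) overlapped an RPL22L1 peak of 603, and the highest RPL22L1 peak (97171222 to 97171390, score 1133, 0.660%) overlapped an RPL22 peak of 79. RRP12, in contrast, had 25 RPL22 and 15 RPL22L1 summits, of which 11 and 1 were not flat. NOB1, the nuclease that makes the 3′ end of 18S rRNA, had 12 and 9, of which 7 and 0 were not flat. TSR1 had 3 and 2 and BYSL 5 and 6, with no shared peak in either. In BYSL 2 and 5 of these summits lay in MED20, which overlaps it.

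**Figure D4:**
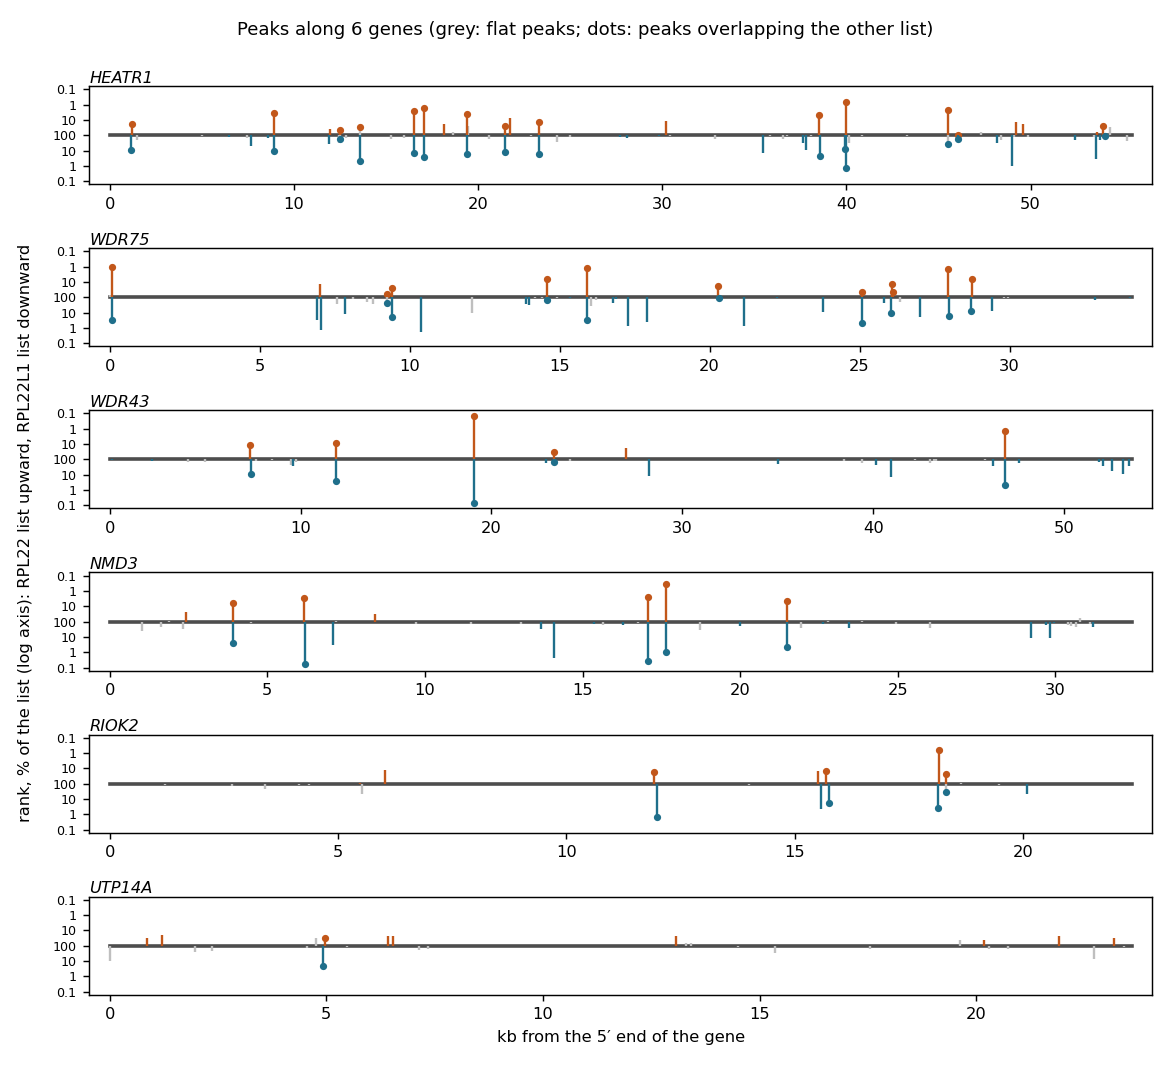
Peaks along HEATR1, WDR75, WDR43, NMD3, RIOK2 and UTP14A by distance in kb from the 5′ end of the gene, with RPL22 peaks drawn upward and RPL22L1 peaks downward to a height that gives the rank in percent of the list on a log axis. Grey lines are flat peaks and dots are peaks that overlap the other list, such as 14 RPL22 peaks of HEATR1 and 1 of UTP14A. The 6 genes were chosen after their values were seen.

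Among large subunit factors NMD3, the adaptor that carries the 60S subunit out of the nucleus, had the most RPL22L1 peaks. It held 12 RPL22 and 41 RPL22L1 summits on chromosome 3 (161221102 to 161253532), or 0.370 and 1.26 per kb, and 5 and 5 were shared. The highest peak of each list was shared, but the order of the sites differed. The highest RPL22 peak, at 161238743 to 161238783 with a score of 1420 (0.346%), overlapped an RPL22L1 peak of 925 (1.003%). The highest RPL22L1 peak, at 161227173 to 161227319 with a score of 3524 (0.175%), overlapped an RPL22 peak of 261 (2.92%). An RPL22L1 peak of 1534 at 161235144 to 161235233 had no RPL22 counterpart.

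The GTPases of the large subunit differed from each other. GNL2 had 13 and 31 summits, of which 8 and 7 were shared, and its highest peaks overlapped at 37587373 to 37587474 and 37587384 to 37587512 of chromosome 1, with scores of 543 and 561. GTPBP4, the human counterpart of NOG1, had 9 and 25 summits, and its highest RPL22L1 peak, with a score of 2092 at 1010412 to 1010545 of chromosome 10, overlapped an RPL22 peak of 123. Of its summits 1 and 4 lay in IDI2, which overlaps it. GNL3 held only 1 and 2 peaks over 8.58 kb, and the only RPL22 peak and the higher RPL22L1 peak were those in snoRNA genes.

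The PeBoW complex, which is made of PES1, BOP1 and WDR12 and is needed for 28S rRNA maturation, varied between its members. WDR12 had 10 RPL22 and 32 RPL22L1 summits, and 8 of the 10 were shared. PES1 had 11 and 8 with 1 shared peak, which was the highest of both lists in the gene (30588033 to 30588070 and 30588039 to 30588085 of chromosome 22, scores of 529 and 972). BOP1 had 9 and 5 and no shared peak, and its highest scores were 127 and 283.

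Of the other large subunit factors, BRIX1 had 4 RPL22 summits, all shared and all also within TTC23L, and 16 RPL22L1 summits. Its RPL22L1 density of 1.56 per kb was the second highest of all members. NOP2, a methyltransferase of 28S rRNA, had 3 and 16, NOP53 4 and 9, NOP16 2 and 4, MRTO4 3 and 6, RRP1 4 and 7 and RRP1B 13 and 28. NVL, an ATPase that acts on pre-60S particles, had 12 and 21 over 102.83 kb, or 0.117 and 0.204 per kb. RRS1, a short gene of 1.72 kb whose product helps to bring 5S rRNA into the subunit, had 3 and 2. This gave the highest RPL22 density, 1.74 per kb, from 3 peaks that all also lay within LOC102724687. NOLC1, a scaffold for snoRNPs, had 5 and 13 summits with overlapping highest peaks of 287 and 481. TCOF1, the gene of treacle, a cofactor of rDNA transcription, had 18 and 14, of which 6 and 1 were not flat.

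Small and large subunit factors were then compared. The 22 small subunit genes held 252 RPL22 summits, 0.382 per kb, and the 17 large subunit genes 113, 0.275 per kb, a ratio of 1.39 (1.11 to 1.75). For the RPL22L1 list the values were 475 and 263 summits, 0.720 and 0.641 per kb, a ratio of 1.12 (0.963 to 1.31). Without UTP20 and NVL, the longest gene of each class and a choice made after the data were seen, the ratios were 1.21 (0.951 to 1.55) and 0.961 (0.819 to 1.13). The second thus passed to the other side of 1, and both intervals included 1. The median density per gene was 0.437 and 0.347 per kb in the RPL22 list but 0.702 and 0.794 in the RPL22L1 list, so the classes turned around there. Flat shares were close, at 33.3% (27.5 to 39.5%) and 30.1% (21.8 to 39.4%) in the RPL22 list and 58.7% (54.2 to 63.2%) and 60.8% (54.7 to 66.8%) in the RPL22L1 list. The shared part of RPL22 peaks was 41.7% (35.5 to 48.0%) in small and 36.3% (27.5 to 45.9%) in large subunit genes, and that of RPL22L1 peaks 22.7% (19.0 to 26.8%) and 15.2% (11.1 to 20.1%). A peak in the top 1% was held by 4 of 22 and 5 of 17 genes for RPL22 and by 10 of 22 and 5 of 17 for RPL22L1. These counts include genes that reached the top 1% only through a peak in a snoRNA gene. In the RPL22 list they were WDR43 of the small and NOP53 and GNL3 of the large subunit factors. Outside the snoRNA genes the best RPL22 rank was 1.325% in WDR43 and 5.65% in NOP53, and GNL3 had no peak. In the RPL22L1 list they were WDR43 and GNL3. Of the 8 members without a shared peak 2 were small and 6 large subunit factors.

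Summit numbers were set against each other in lists of equal size. Of the 32 members where both lists summed to 10 summits or more, the log2 ratio of summit number plus 1, RPL22L1 over RPL22, was above 1 in 3, where 5.83% of protein-coding genes with as many summits passed this limit. It was below -1 in 3, where 9.66% of such protein-coding genes did. These shares rest on 3 genes each. The median was 0.39 over the members, 0.25 over small and 0.50 over large subunit factors, and 0 over protein-coding genes. RPL22L1 peaks were 54.0% (50.5 to 57.4%) of all member summits in these lists and 49.7% of all protein-coding ones. Across the 41 members, summits per kb had a Spearman correlation of 0.34 between the whole lists, which share the bounds of each gene.

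The members with the largest ratios towards RPL22L1 were WDR43 with 6 and 19 summits (log2 ratio 1.52), NOP2 with 3 and 8 (1.17), NOL11 with 8 and 19 (1.15), UTP4 with 3 and 7 (1) and LTV1 with 4 and 9 (1). RPL22L1 peaks made up 76.0% (54.9 to 90.6%) of both in WDR43, and in the other 4 the interval of this share included 50%. WDR75 followed with 14 and 28 (0.95) and a share of 66.7% (50.4 to 80.4%). Those towards RPL22 were BOP1 with 9 and 3 (-1.32), RRP12 with 25 and 10 (-1.24), NOB1 with 12 and 5 (-1.12), UTP14A with 14 and 7 (-0.91) and TCOF1 with 18 and 10 (-0.79). In RRP12 the RPL22L1 share was 28.6% (14.6 to 46.3%), and in the other 4 the interval included 50%. All these genes were picked for their ratios, and peaks of 1 gene are not independent. The intervals are therefore no test of a difference from 50%. Without flat peaks, in the whole lists, the ratio was -2.58 in RRP12, -3 in NOB1, -2.32 in UTP14A, -1.81 in TCOF1 and -1.22 in BOP1. In the same setting it was 1.58 in WDR43, 1.22 in UTP4, 1.08 in NOL11 and 1 in LTV1 but 0.32 in NOP2. NOL6 went from 0 to -3. In NOL6 and NOB1 the value of -3 comes from 7 RPL22 and 0 RPL22L1 peaks that were not flat. How many protein-coding genes passed 1 or -1 without flat peaks was not counted. With flat peaks kept in the whole lists, where the RPL22L1 list is the longer, UTP14A had a ratio of 0.26.

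**Figure D5:**
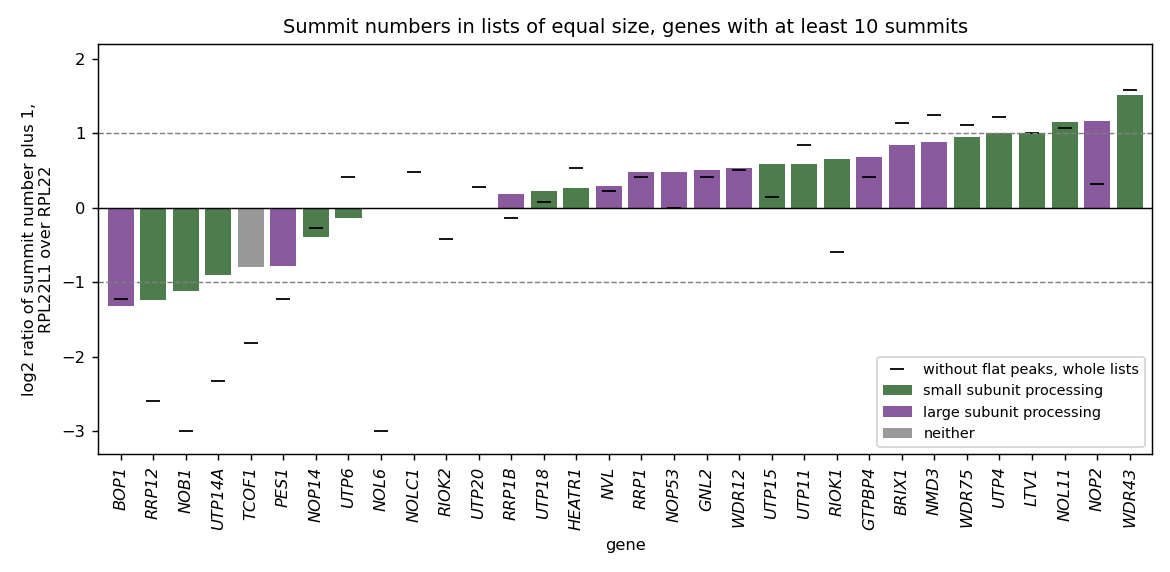
Log2 ratio of summit number plus 1, RPL22L1 over RPL22, in lists of equal size for the 32 genes with at least 10 summits (bars, coloured by subunit) and the same ratio without flat peaks in the whole lists (dashes). Dashed lines mark 1 and -1, and the bars run from -1.32 in BOP1 to 1.52 in WDR43.

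Along the genes, peaks were spread over the whole length. In the 35 members with a known strand, the 315 RPL22 summits fell into 5 equal parts of the gene, from the 5′ to the 3′ end, as 67, 67, 55, 51 and 75. The 688 RPL22L1 summits fell as 136, 123, 129, 131 and 169. The last part held the most in both lists, 23.8% and 24.6%. This order was not kept by peaks that were not flat. Of these the first part held the most in the RPL22 list, 50 against 47 in the last, and the last and the one before it held 64 each in the RPL22L1 list. Exons and introns were not used here.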

How the data were processed

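GoldCLIP-seq peak lists of 2 libraries were used, RPL22-HaloTag and RPL22L1-HaloTag, 1 library per group. The submitters' processing notes name cutadapt 4.8, STAR 2.7.10a, UMI-tools 1.1.5, MACS3 3.0.0a6 and build hg38. Their settings and the control used for peaks are not given in the sources used here. The deposited score is a whole number per peak, 13 or more, and the other deposited value used is the summit offset from the peak start. The authors listed peaks per library. Read depth is unknown.

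Summits (start plus offset plus 1) were counted within RefSeq bounds of GRCh38.p14. Flat peaks were 30 bases wide with an offset of 15. Overlap meant at least 1 shared base. For log2 ratios the longer list was reduced to scores above 98, the score at which it would pass the length of the shorter one. Shares have Clopper-Pearson and counts Poisson intervals (95%); ratios of densities have intervals from the Clopper-Pearson interval of 1 class's share. Values in full were given to the 5 members with the most summits, the most per kb, the highest peaks and the largest ratios each way, and to those with no summit, overlapping highest peaks or a snoRNA gene with a summit. Alternatives were a score limit, equal list length, no flat peaks, no nested genes, stricter overlap, merging, and a minimum of 3 summits. Members and lists were chosen with earlier results of these data known. Python 3.11.15, numpy 2.4.6, pandas 2.3.3 and scipy 1.17.1 were used. On simulated peaks 200 of 200 genes got their planted number, and 30979 of 30979 planted overlaps were found.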

Additional observations from a re-analysis of the deposited data

How the results depend on the processing

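Merging over gaps and the removal of UTP20 and NVL were chosen after seeing the data. Keeping peaks at or above the median score gave 0.251 RPL22 and 0.346 RPL22L1 summits per kb, flat shares of 13.8% and 39.1%, and a shared part of RPL22L1 peaks of 28.0%. Lists of equal size gave 0.405 RPL22L1 summits per kb, a flat share of 43.7% and shared parts of 32.0% (RPL22) and 27.5% (RPL22L1). Without flat peaks there were 0.229 and 0.272 summits per kb, a shared part of 31.4% for RPL22L1 peaks, and median ranks of the highest peaks of 9% and 8.44% of the then shorter lists. With an overlap of 50% or more required, shared parts were 21.4% and 10.8%. Merging peaks with fewer than 100 bases between them gave 0.598 RPL22L1 summits per kb. Fewer peaks follow from the construction of these settings. Without UTP20 and NVL the RPL22L1 ratio of small to large subunit density was 0.961, on the other side of 1. Merging overlapping or adjoining peaks changed nothing, since neither list held any. Of 53 alternative values for the main answers, 35 stayed close: numbers of genes within 1.5-fold, and all other values within the interval of the value reported. The 35 include the values from merging overlapping or adjoining peaks, which could not differ and so say nothing about stability. Of 64 log2 ratios of single genes, 34 kept their side of 1 and -1 without turning from above to below 0 or back, with ratios of 0 counted as either. None past these limits changed sign. Depth is unknown and there were no replicates, so no spread between libraries could be measured. No paired analysis was possible because each group had 1 library.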
